A study of Mus musculus with 8 samples.

Results

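The 37 interferon-stimulated genes described here are those rows of the deposited table, out of 16464, whose symbol is on a list of genes induced by interferon. The list was divided by role into 19 antiviral genes of the type I response (among them the 10 genes of the Ifit, Oas and Mx families), 5 sensors of foreign nucleic acid or partners of such sensors, 4 transcription factors and 9 GTPases that interferon gamma induces (5 Gbp genes and 4 immunity-related GTPases). All 37 had a row and all 37 passed the filter on low values. The tissue was the posterior knee joint capsule, the fibrous sheet behind the joint, of wild type male C57BL/6 mice, and its RNA was sequenced in bulk. There were 4 libraries of naive mice, here naive 1 to 4, and 4 libraries of mice with the knee immobilised at 140 degrees in a cast for 2 weeks, here cast 1 to 4. The sample labels give an age of 10 weeks for both groups and the series text an age of 8 weeks. The comparison asks what immobility of the knee does to gene expression in the capsule. Since the labels do not state that each library is a different animal, the p values speak of the spread between libraries, part of which may be technical.

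Interferons are secreted proteins that warn cells of infection or tissue damage. Type I interferons act through the receptor of Ifnar1 and Ifnar2, and a complex that holds STAT2 and IRF9 then binds the interferon-stimulated response element of genes such as Isg15, Oas1a and Ifit3. Interferon gamma, made mainly by T and natural killer cells, acts through Ifngr1 and Ifngr2 and leads to binding at the gamma-activated site, as in Irf1, whose product in turn binds response elements of the GTPase genes. Many genes of this group answer to both kinds of interferon, and macrophages, fibroblasts and endothelial cells of joint tissue can all express them.

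Promoter sequences show how these elements lie in the members. Windows from 250 bases before to 50 bases after the annotated start were taken from RefSeq (build GRCm38.p6), which gave 27 of the 37 members an entry. Members without an entry were Usp18, Mx1, Mx2, Oas2, Rtp4, Parp14, Dhx58, Zbp1, Gbp6 and Iigp1. The core of the response element was searched as the letters GAAA, any 2 bases and GAAA again or, on the other strand, as TTTC, any 2 bases and TTTC again, and TTCNNNGAA, which reads alike on both strands, was searched as the gamma-activated site, with overlapping matches each counted. The core of the response element was found in 17 of the 27 members (63.0%), against 457 of 12302 genes of the table with a window (3.71%). The gamma-activated site was found in 8 of the 27 members (29.6%), against 8.54% of those 12302 genes. All 7 GTPase genes with a window held the core of the response element and 4 of them the gamma-activated site, against 7 and 3 of the 13 antiviral genes with a window. A match describes letters in the window and does not show that a factor binds there.

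Stretches of 120 bases before the start show the arrangement in 3 antiviral genes, with the response element core in capitals, all written 5′ to 3′ on the strand of the gene. Oas1a is the gene of the antiviral group with a window that passed the test below, Isg15 was the one with 3 overlapping cores, and Ifit3 carried a spaced pair.
Oas1a (chr5:120907526-120907645, minus strand): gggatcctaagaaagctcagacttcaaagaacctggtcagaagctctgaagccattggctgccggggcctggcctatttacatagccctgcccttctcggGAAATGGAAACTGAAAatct
Isg15 (chr4:156200826-156200945, minus strand): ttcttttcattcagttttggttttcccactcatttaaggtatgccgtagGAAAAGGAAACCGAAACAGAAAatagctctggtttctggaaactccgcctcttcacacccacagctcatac
Ifit3 (chr19:34583335-34583454, plus strand): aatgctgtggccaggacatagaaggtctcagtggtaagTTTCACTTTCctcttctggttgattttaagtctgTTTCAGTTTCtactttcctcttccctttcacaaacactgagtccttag
The cores began 20 and 14 bases before the start in Oas1a, 78, 72 and 66 bases before it in Isg15, and 156 and 122 bases before it in Ifit3. Oas1a also held a gamma-activated site 98 bases before its start, left in lower case.

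The corresponding stretches of 3 GTPase genes, again with the response element core in capitals, show the neighbours Igtp and Irgm2, which lie close together on chromosome 11, and Gbp7 of the Gbp cluster on chromosome 3.
Igtp (chr11:58199436-58199555, plus strand): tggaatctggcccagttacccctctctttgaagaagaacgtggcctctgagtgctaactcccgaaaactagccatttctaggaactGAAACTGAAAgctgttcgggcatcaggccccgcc
Irgm2 (chr11:58214857-58214976, plus strand): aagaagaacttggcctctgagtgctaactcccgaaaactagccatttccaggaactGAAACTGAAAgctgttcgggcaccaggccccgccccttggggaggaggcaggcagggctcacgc
Gbp7 (chr3:142530216-142530335, plus strand): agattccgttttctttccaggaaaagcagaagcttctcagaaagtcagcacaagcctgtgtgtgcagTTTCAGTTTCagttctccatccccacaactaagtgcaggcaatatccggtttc
Aligned without gaps, the Igtp and Irgm2 stretches shared 87 of 90 bases, with 1 core each, 34 bases before the start of Igtp and 64 bases before that of Irgm2. Each of them also held a gamma-activated site 11 bases before that core, and Gbp7 held 2 such sites. Irf1 and Ifit2 were the members whose windows held the gamma-activated site and no core, and the stretch of Irf1, whose product drives gamma-induced genes, is printed with that site in capitals.
Irf1 (chr11:53769869-53769988, plus strand): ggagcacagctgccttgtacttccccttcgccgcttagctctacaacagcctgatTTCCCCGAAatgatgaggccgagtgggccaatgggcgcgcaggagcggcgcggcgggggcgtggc
This site began 90 bases before the start of Irf1. Among the transcription factors the core was found in Stat2 only, 222 bases before its start, of 4 with a window.

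**Figure D1:**
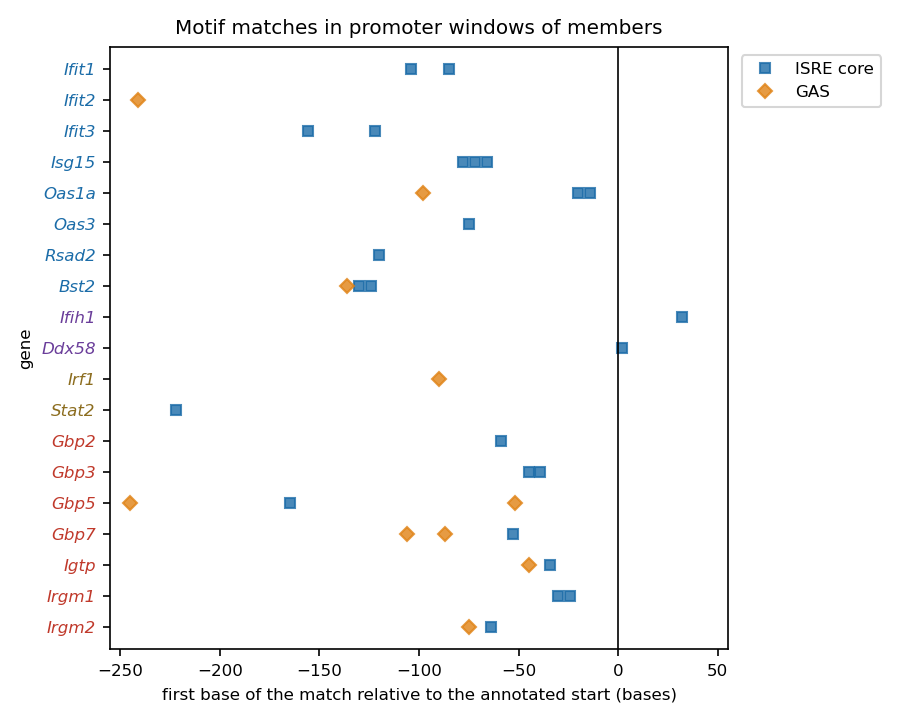
Distance in bases of each motif match from the annotated start (x axis, 0 is the start) for the 19 members with a match (y axis). Squares are cores of the interferon-stimulated response element and diamonds gamma-activated sites; gene names are blue for antiviral genes, purple for sensors, brown for transcription factors and red for GTPases, and all matches but those of Ifih1 and Ddx58 lie before the start.

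Libraries differed in ways the groups do not explain. Whole reads recovered from the deposited values numbered 1503880 in naive 4. Naive 1 to 3 held 6038095 to 6805349 and the cast libraries 5956148 to 7381255, so 1 read was worth 0.647 units of normalised read count in naive 4. Correlation of log2 values across genes, which are not independent replicates, was 0.903 to 0.915 between naive 4 and naive 1 to 3, against 0.983 to 0.985 within naive 1 to 3. Capsule genes were present in every library: Prg4, the lubricin gene of synovial tissue, lay between 1378 and 5315, while the tendon genes Scx and Tnmd lay between 1.33 and 8.73. The summed level of 12 skeletal muscle markers was 1450 to 2559 in naive 1 to 3, 115 in naive 4, 340 in cast 1 and 20.9 to 100 in cast 2 to 4. The 10 macrophage markers summed to 2081 to 2904 in naive 1 to 3, 3936 in naive 4 and 2850 to 4197 in the cast libraries. The 11 T and natural killer cell markers summed to 2.48 to 4.53 in naive and 25.1 to 35.9 in cast libraries, and 9 of the 11 were at 0 in naive 4. Cd4 alone gave 0.496 to 3.88 of these sums in naive and 9.07 to 20.5 in cast libraries. In bulk tissue, fewer cells of a type and less RNA per cell cannot be told apart.

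Most interferon-stimulated genes did not pass the test between cast and naive libraries. On simulated data that test called 16 of 100 genes changed 2-fold. There 100 genes were changed 2-fold and 100 were changed 4-fold among 15099, while 1810 of 15120 passed in the data. The adjustment over all genes was thus stricter in the simulation, so the 16 is not the power of the test here. A member that did not pass may still have changed. Of the 37 members, 0 rose and 2 fell, Oas1a and Oas2 (limma on log2(value + 1) over 15120 genes, Benjamini-Hochberg adjusted p at most 0.05). Among all genes tested 12.0% passed, 6.51% as a rise and 5.46% as a fall, so the members' share of 2 falls in 37 was near the background. The median log2 fold change, cast minus naive, was 0.01 over the members and 0.07 over all genes tested. It was -0.21 for the 19 antiviral genes, -0.14 for the 5 sensors, 0.14 for the 4 transcription factors and 0.34 for the 9 GTPases. By edgeR's quasi-likelihood test on the recovered reads 2 members rose, Iigp1 and Irgm1, and the same 2 fell, against 13.5% of all genes (7.29% rose and 6.20% fell).

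The groups did not overlap in 3 members, Iigp1 higher and Oas1a and Oas2 lower in cast capsules. Over all genes tested the groups did not overlap in 20.5%, 11.1% higher and 9.39% lower. The plan of the comparison set naive 4 to be shown apart. Over all genes tested it was the highest naive library in 37.4% and the lowest in 41.7%. Without it 1 member rose, Iigp1, and the same 2 fell, against 17.6% of 15148 genes tested (9.12% rose and 8.47% fell). The groups then did not overlap in 6 members, Rsad2, Irgm1 and Iigp1 higher and Oas1a, Oas2 and Ifih1 lower, against 30.6% of genes (15.5% higher and 15.1% lower). The median was then 0.65 for the GTPases, 0.01 for the antiviral genes and 0.01 over all genes.

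**Figure D2:**
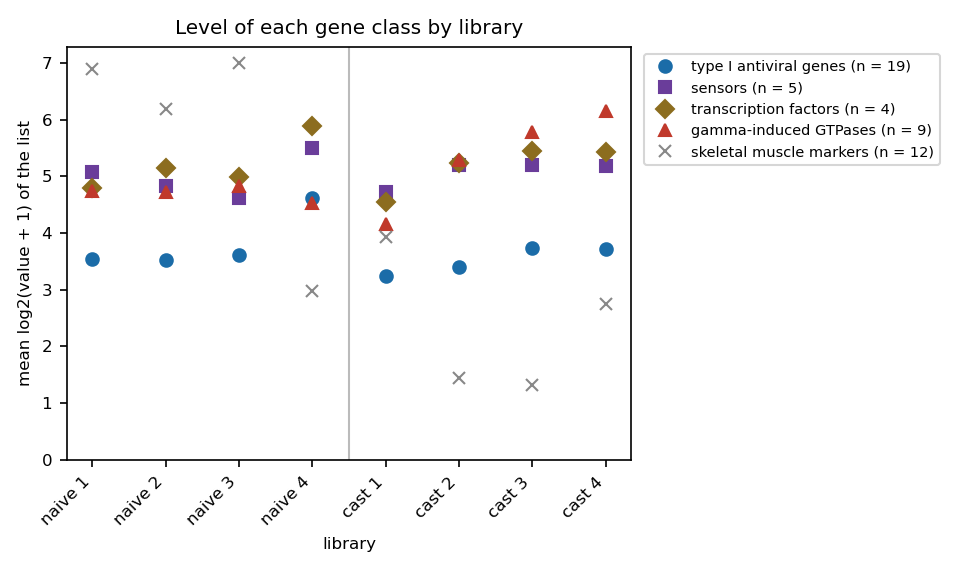
Mean log2(normalised read count + 1) of each gene class (y axis) in the 8 libraries (x axis), with the skeletal muscle markers as crosses. Antiviral genes (circles) stood at 4.61 in naive 4 and at 3.25 to 3.73 in the other 7 libraries, and GTPases (triangles) ran from 4.16 in cast 1 to 6.14 in cast 4.

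Cast 1 was the other library that set results. Without it Irgm1 and Irgm2 rose and Oas2 fell, against 9.74% of 15055 genes tested (5.09% rose and 4.65% fell), while the groups did not overlap in 7 members, 5 higher (4 of them GTPases) and 2 lower, against 26.6% of genes (14.6% and 12.0%). Without naive 4 and cast 1 together, a setting chosen after seeing the data, 8 members rose (Zbp1, Irf1, Stat2, Gbp5, Igtp, Iigp1, Irgm1 and Irgm2) and 2 fell (Oas1a and Oas2), against 21.7% of 15084 genes tested (11.4% rose and 10.3% fell). Of the 9 GTPases 5 then rose, with a median log2 fold change of 1.07, and of the 19 antiviral genes 0 rose and 2 fell, with a median of 0.17 against 0.01 over all genes. Skeletal muscle markers were higher in cast 1 than in the other cast libraries and lower in naive 4 than in the other naive libraries. With their level as a covariate over all 8 libraries, 1 member rose (Iigp1) and 10 fell (Isg15, Usp18, Oas1a, Oas2, Oasl1, Cmpk2, Bst2, Ddx58, Dhx58 and Irf7), against 27.8% of genes tested (18.7% rose and 9.05% fell), with a median of -0.69 over the members and 0.11 over all genes. Their part in the values of the members was not tested beyond this fit.

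**Figure D3:**
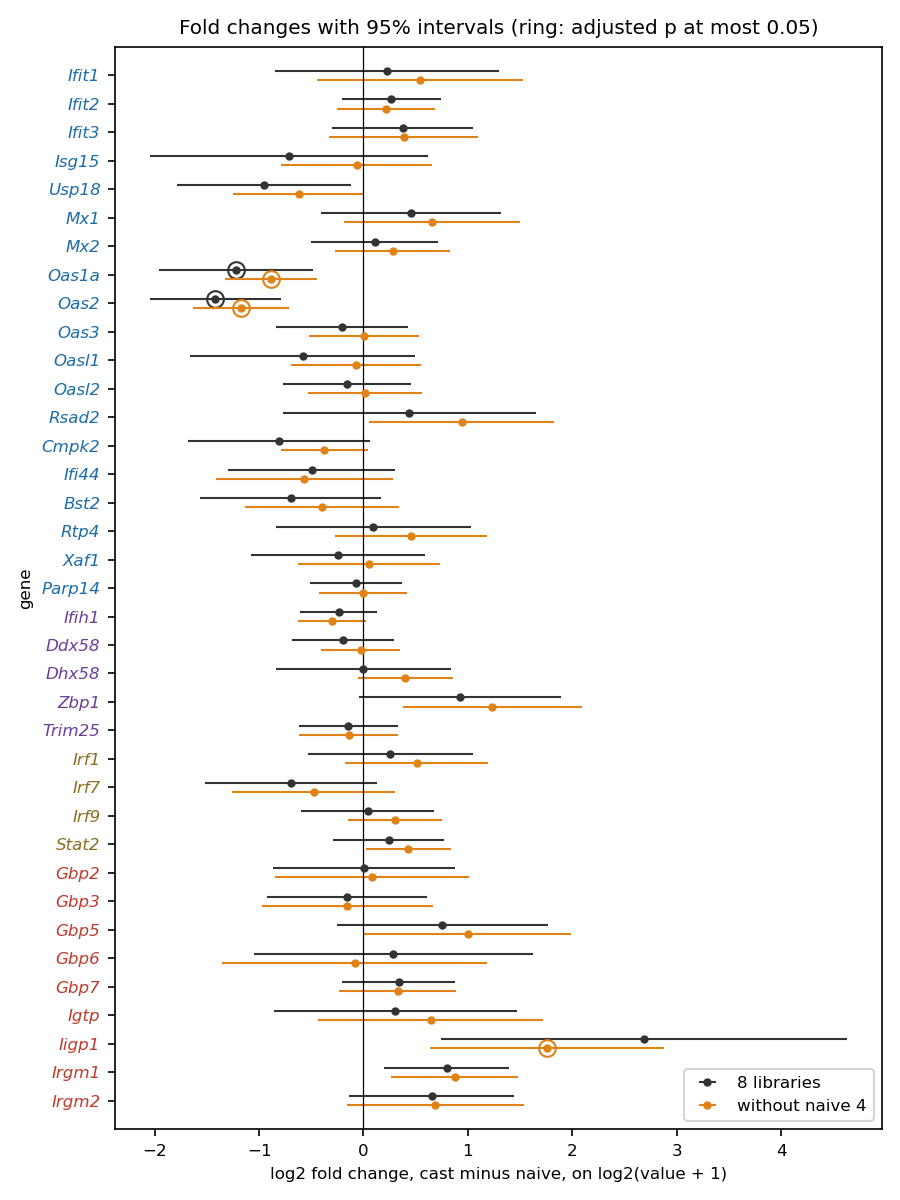
Log2 fold change, cast minus naive, of each member on the log2(value + 1) scale (x axis) with its 95% confidence interval from limma, over 8 libraries (dark) and without naive 4 (orange). Rings mark an adjusted p of at most 0.05, which Oas1a and Oas2 reached in both and Iigp1 without naive 4; gene names are coloured by class as in the plot of motif distances.

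Oligoadenylate synthetases make a short signal molecule on contact with double-stranded RNA, which switches on the RNA-degrading enzyme RNase L. Oas2 (chromosome 5, 120730333 to 120749853, minus strand, build GRCm38) stood at 28.9, 26.0, 17.0 and 47.2 normalised read counts in naive 1 to 4 and at 8.73, 10.9, 9.27 and 10.5 in cast 1 to 4. Every cast library lay below every naive library, and the cast values spread little. Oas2 fell from 29.8 ± 12.7 to 9.87 ± 1.04 (mean ± SD, n = 4 each), a log2 fold change of -1.42 with a standard error of 0.281 (limma adjusted p = 0.0122). Without naive 4 the log2 fold change was -1.17 (adjusted p = 0.00516), and the call held in each of the 20 alternatives run (adjusted p from 2.65e-05 to 0.0419).

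Oas1a (chromosome 5, 120896256 to 120907521, minus strand) stood at 12.1, 9.36, 11.2 and 29.1 in naive 1 to 4 and at 4.12, 5.69, 5.59 and 6.402 in cast 1 to 4. The groups again did not overlap, and naive 4 was the highest library by far. Oas1a fell from 15.4 ± 9.18 to 5.45 ± 0.958 (n = 4 each), a log2 fold change of -1.22 with a standard error of 0.330 (limma adjusted p = 0.0404). Without naive 4 the naive mean was 10.9 ± 1.38 (n = 3) and the log2 fold change -0.89 (adjusted p = 0.0147). The call was lost when 1 library was left out in 6 of 8 cases: naive 1 (adjusted p = 0.0659), naive 3 (0.0694) and cast 1, 2, 3 or 4 (0.0958, 0.0883, 0.0986 and 0.0671). Of the words of 100 bases in its longest transcript, 40.9% also occur in Oas1g, so reads may have been divided between these genes. Oas1g itself, a member of a wider list of interferon-induced genes, stood at 2.41, 2.74, 2.48 and 13.6 in naive and 1.48, 0.899, 0.954 and 0.800 in cast libraries, and fell without naive 4 (log2 fold change -0.81, adjusted p = 0.0245) but not over all 8 libraries (-1.32, adjusted p = 0.0894).

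Oas3 lies between Oas2 and Oas1a in a cluster of 3 members on chromosome 5 (120730333 to 120907521). It stood at 8.74, 13.4, 8.43 and 18.8 in naive and 12.5, 11.8, 8.59 and 7.87 in cast libraries. Unlike those of its neighbours, its groups overlapped widely. Oasl1 and Oasl2, relatives that dampen or aid antiviral signalling without making the signal molecule in the case of Oasl1, form a separate cluster on the same chromosome. Oasl1 was 2.26 to 4.67 in naive 1 to 3, 15.5 in naive 4 and 1.98 to 4.23 in the cast libraries (log2 fold change -0.58, adjusted p = 0.488). Oasl2 was 20.7 to 22.2 in naive 1 to 3, 35.6 in naive 4 and 13.2 to 28.9 in the cast libraries (log2 fold change -0.15, adjusted p = 0.756). Without naive 4 the log2 fold changes of this pair were -0.07 and 0.02.

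Isg15 encodes a ubiquitin-like protein that is attached to other proteins, and Usp18 the protease that removes it and also dampens the type I receptor. Isg15 stood at 4.22, 4.84, 6.78 and 36.2 in naive 1 to 4 and at 2.64, 3.90, 7.23 and 7.34 in cast 1 to 4. Naive 4 was the only library above 7.34, and its 56 reads gave a 95% counting interval of 27.4 to 47.0 (exact Poisson, counting error only). The log2 fold change was -0.71 (95% confidence interval -2.04 to 0.61, limma adjusted p = 0.490) with naive 4 and -0.07 (-0.79 to 0.66, adjusted p = 0.913) without it. Usp18 stood at 10.5, 6.13, 15.05 and 26.5 in naive and at 5.11, 5.69, 6.14 and 7.87 in cast libraries. Its groups overlapped only through naive 2 (6.13 against cast values of 6.14 and 7.87), and its log2 fold change of -0.95 did not pass (adjusted p = 0.138, and 0.158 without naive 4).

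**Figure D4:**
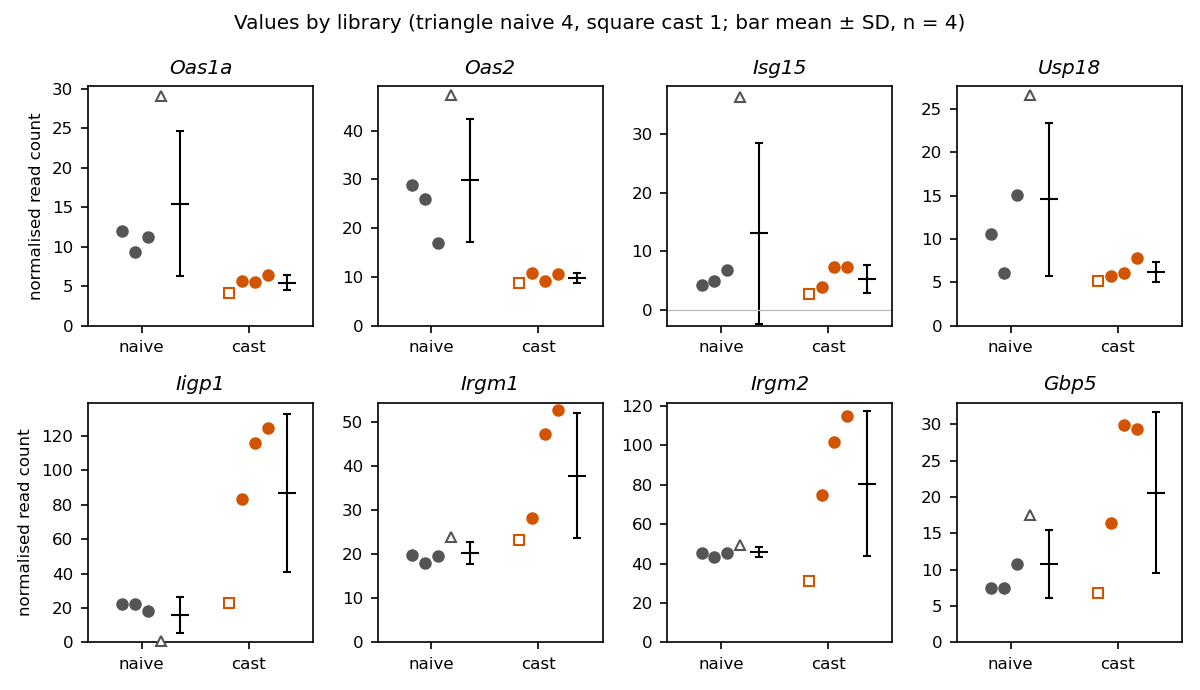
Normalised read counts (y axis) of 8 members in the naive (grey) and cast (orange) libraries; the triangle is naive 4, the square cast 1, and the bar mean ± SD with n = 4. For Oas1a and Oas2 the cast points lie below all naive points, for Isg15 naive 4 stands alone at 36.2, and for the 4 GTPases of the lower row cast 1 is the lowest cast point.

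IFIT proteins bind viral RNA and block its translation. Ifit1 stood at 8.59, 5.81, 11.4 and 21.3 in naive and 5.27, 10.9, 15.8 and 26.0 in cast libraries (log2 fold change 0.23, 95% confidence interval -0.84 to 1.30, adjusted p = 0.798). Ifit3 stood at 12.2, 16.9, 20.8 and 16.8 in naive and 13.7, 19.0, 21.5 and 38.4 in cast libraries (0.38, -0.30 to 1.05, adjusted p = 0.477), and 31.7% of its words of 100 bases also occur in Ifit3b. Ifit2 ranged from 23.5 to 36.5 in naive and from 25.3 to 41.3 in cast libraries. All 3 lie within one cluster on chromosome 19 (34550694 to 34650009), and the groups overlapped in each.

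Mx proteins are dynamin-like GTPases that trap viral particles. Mx1 stood at 2.11, 2.26, 3.31 and 5.17 in naive and 9.56, 2.997, 5.59 and 2.40 in cast libraries, so cast 1 was its highest library (log2 fold change 0.45, adjusted p = 0.501). Mx2, annotated as a polymorphic pseudogene, lay between 1.61 and 3.23 in naive and between 1.499 and 3.68 in cast libraries, where naive 4 had only 5 reads. Both were among the lowest members, which limits what can be seen.

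Rsad2 (viperin, which makes a chain-terminating nucleotide) and Cmpk2 (a kinase that supplies its substrate) are neighbours on chromosome 12 (26442746 to 26479837). Rsad2 stood at 11.3, 11.0, 12.1 and 49.2 in naive and 38.2, 13.3, 39.5 and 13.2 in cast libraries. Cast values thus fell into a high pair, cast 1 and cast 3, and a low pair, cast 2 and cast 4, and all 4 lay above naive 1 to 3 but below naive 4. Cmpk2 stood at 14.6, 11.9, 13.9 and 47.2 in naive and 10.7, 12.7, 8.73 and 8.80 in cast libraries, without the high pair of its neighbour. Its log2 fold change was -0.81 (adjusted p = 0.223) with naive 4 and -0.38 (adjusted p = 0.199) without it.

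The other antiviral genes overlapped between the groups. Bst2, the gene of tetherin, which holds budding viruses at the cell surface, stood at 18.4, 43.4, 29.1 and 67.3 in naive and 13.8, 19.3, 24.1 and 32.5 in cast libraries (log2 fold change -0.70, 95% confidence interval -1.57 to 0.17, adjusted p = 0.292). Rtp4 and Xaf1 ran from 9.76 to 32.3 and from 5.81 to 18.1 in naive libraries, with naive 4 highest in both, and from 8.73 to 25.9 and from 3.96 to 11.2 in cast libraries, with cast 4 highest in both. Parp14, an ADP-ribosyltransferase of macrophages and other cells, was the member with the highest naive mean, 116 ± 15.4, and 111 ± 24.4 after casting (n = 4 each). Ifi44 was low throughout, 2.15 to 6.45 in naive and 0.989 to 3.41 in cast libraries.

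Of the cytoplasmic RNA sensors none passed the test over all 8 libraries. Ddx58, the gene of RIG-I, stood at 57.7, 50.3, 46.1 and 82.1 in naive and 39.7, 48.0, 61.8 and 53.7 in cast libraries (log2 fold change -0.20, 95% confidence interval -0.69 to 0.29, adjusted p = 0.615). Ifih1, the gene of MDA5, stood at 53.2, 44.7, 55.9 and 42.7 in naive and 34.8, 44.7, 44.3 and 42.0 in cast libraries, so it was one of the few members in which naive 4 was the lowest naive library. Dhx58, the gene of LGP2, was 7.94 to 10.1 in naive 1 to 3, 29.1 in naive 4 and 9.06 to 15.3 in cast libraries (log2 fold change -0.00, adjusted p = 0.9997, and 0.40, adjusted p = 0.206, without naive 4). Trim25, the ubiquitin ligase that activates RIG-I, ranged from 63.3 to 122 in naive and from 72.0 to 94.9 in cast libraries.

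Zbp1, a sensor of Z-form nucleic acid that can start necroptosis, stood at 9.34, 8.07, 4.63 and 18.1 in naive and 8.08, 21.3, 23.0 and 25.9 in cast libraries. Cast 2 to 4 lay above all naive libraries and cast 1 among them. Its log2 fold change was 0.92 (95% confidence interval -0.04 to 1.89, limma adjusted p = 0.209), and 1.23 (adjusted p = 0.0531) without naive 4. Without naive 4 and cast 1 it rose (1.59, adjusted p = 0.00268).

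Among the transcription factors, Irf1, which drives gamma-induced genes, stood at 36.9, 34.7, 45.3 and 78.9 in naive and 29.8, 54.7, 86.2 and 67.1 in cast libraries (log2 fold change 0.26, adjusted p = 0.686). Stat2 stood at 35.7, 38.6, 28.6 and 58.2 in naive and 34.6, 50.7, 49.2 and 52.5 in cast libraries (0.24, adjusted p = 0.568). In both genes naive 4 and cast 1 each lay nearer to the opposite group than to the rest of their own, and both genes rose only without those 2 libraries or with weights that count them less, among the 20 alternatives. Irf7, which amplifies the type I response, stood at 13.1, 36.8, 25.0 and 42.7 in naive and 9.72, 19.6, 18.1 and 19.9 in cast libraries (-0.69, 95% confidence interval -1.52 to 0.13, adjusted p = 0.271). Its exons overlap those of Phrf1 on the opposite strand, and whether strand was used in counting is not given in the sources used here. Irf9 was 28.1 to 28.5 in naive 1 to 3, 58.9 in naive 4 and 24.9 to 44.1 in cast libraries, and its exons overlap those of Rnf31 on the same strand.

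Immunity-related GTPases, which attack the vacuoles of intracellular parasites and bacteria, include Iigp1, which had the highest log2 fold change of the 37 members. Iigp1 (chromosome 18) stood at 22.6, 22.3, 18.0 and 0.647 in naive 1 to 4 and at 22.9, 83.6, 116 and 125 in cast 1 to 4. Cast 1 exceeded the highest naive library by 22.9 to 22.6, well within its counting interval (19.3 to 27.0), while cast 2 to 4 were several times higher. The value in naive 4 was a single read, with a 95% exact Poisson interval of 0.0164 to 3.60 on the deposited scale, so this library lay far below the rest of its group here, opposite to its place in the antiviral genes. The log2 fold change was 2.69 with a standard error of 0.869 (limma adjusted p = 0.0763) over 8 libraries. Without naive 4 Iigp1 rose from 20.96 ± 2.55 (n = 3) to 86.8 ± 46.1 (n = 4), a log2 fold change of 1.76 (95% confidence interval 0.63 to 2.88, adjusted p = 0.0393). Iigp1 rose by edgeR (adjusted p = 0.0352) and DESeq2 (adjusted p = 0.00292) on recovered reads of all 8 libraries.

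Irgm1, a regulator of the other immunity-related GTPases and of autophagy (chromosome 11, 48861968 to 48871683, minus strand), stood at 19.7, 18.1, 19.5 and 23.9 in naive and 23.2, 28.3, 47.2 and 52.7 in cast libraries. Naive values were tight, and the groups overlapped only through cast 1 and naive 4. The log2 fold change was 0.80 with a standard error of 0.268 (limma adjusted p = 0.0871), and 0.87 (adjusted p = 0.0530) without naive 4. Irgm1 rose by edgeR (0.92, adjusted p = 0.0474), by DESeq2 (0.90, adjusted p = 0.0211) and without cast 1 (0.997, adjusted p = 0.0391).

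Irgm2 stood at 45.5, 43.1, 45.1 and 49.2 in naive and 31.3, 74.6, 102 and 115 in cast libraries. Naive libraries lay within a narrow range, cast 1 lay below it and the other cast libraries above it (log2 fold change 0.65, 95% confidence interval -0.14 to 1.44, adjusted p = 0.278). Without cast 1 Irgm2 rose (1.05, adjusted p = 0.0126). Igtp, its neighbour and near-identical in the promoter stretch printed above, stood at 17.3, 13.6, 20.8 and 45.3 in naive and 9.39, 26.4, 40.0 and 52.9 in cast libraries (0.31, 95% confidence interval -0.86 to 1.47, adjusted p = 0.745). Naive 4 thus lay between cast 3 and cast 4 in Igtp but close to naive 1 to 3 in Irgm2. The exons of Igtp and Irgm2 overlap on the same strand, and 5.67% of the words of 100 bases of Igtp also occur in Irgm2.

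Guanylate-binding proteins coat and break open bacteria and their vacuoles. Gbp5, which also aids the assembly of the inflammasome, stood at 7.53, 7.42, 10.7 and 17.5 in naive and 6.76, 16.5, 29.9 and 29.3 in cast libraries (log2 fold change 0.76, 95% confidence interval -0.26 to 1.77, adjusted p = 0.329). Gbp2 stood at 42.5, 48.2, 55.1 and 60.2 in naive and 21.8, 49.5, 62.7 and 101 in cast libraries (0.01, -0.87 to 0.88, adjusted p = 0.993). Gbp7 stood at 69.0, 53.6, 67.5 and 61.4 in naive and 52.9, 69.5, 90.8 and 119 in cast libraries (0.34, -0.20 to 0.88, adjusted p = 0.420). Gbp3 ran from 20.2 to 27.6 in naive and from 10.5 to 40.0 in cast libraries. These 4 genes form 1 cluster on chromosome 3 (142493978 to 142638008), and in each of them naive libraries spread less than cast libraries, whose lowest was cast 1.

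Gbp6, on chromosome 5, stood at 30.1, 32.4, 24.1 and 9.70 in naive and 7.58, 26.7, 36.8 and 67.6 in cast libraries. Like Iigp1 it was lowest in naive 4 among the naive libraries. Of its words of 100 bases 51.3% occur in other genes, so its level is uncertain.

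**Figure D5:**
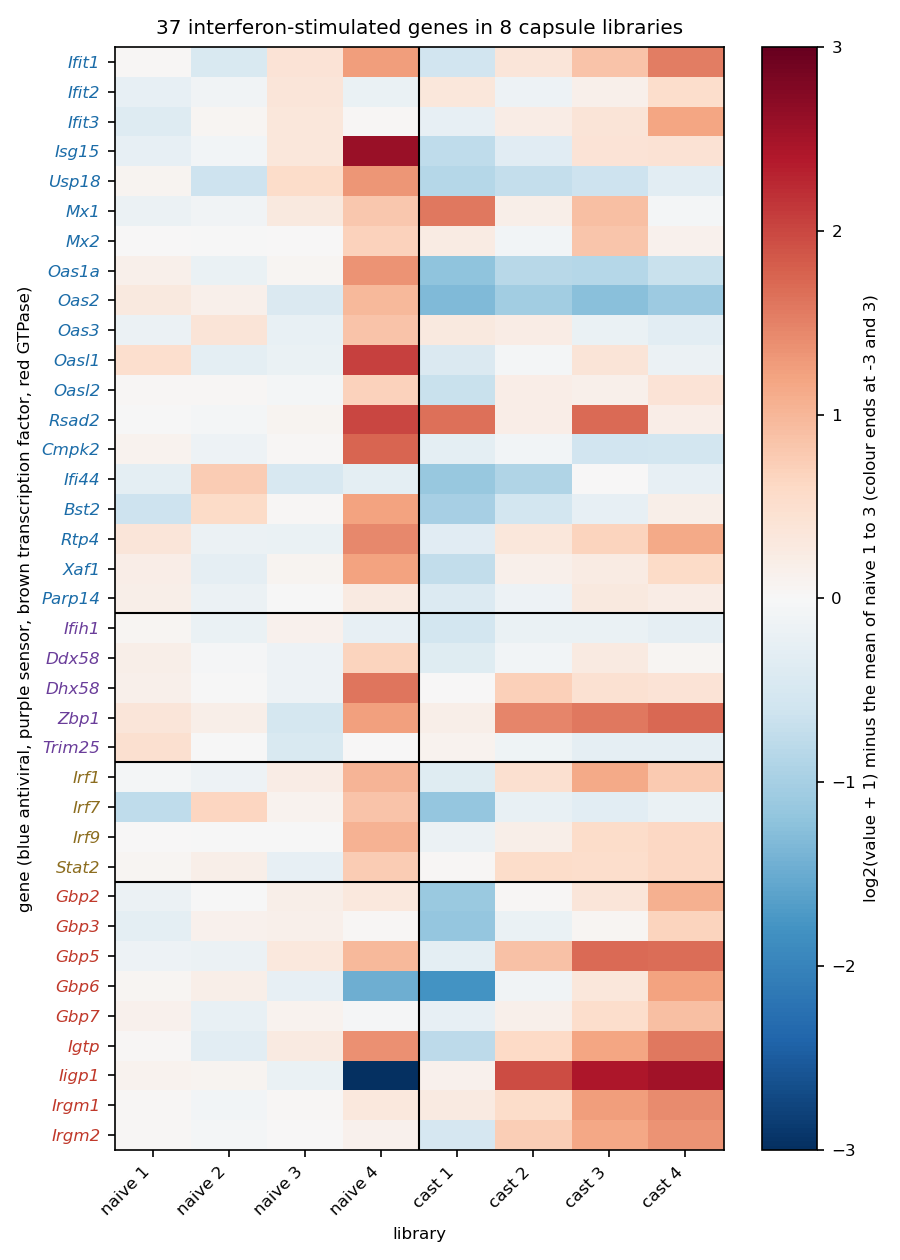
Log2(normalised read count + 1) of the 37 members (y axis, classes separated by lines) in the 8 libraries (x axis) as the difference from the mean of naive 1 to 3, with colour ending at -3 and 3. Most antiviral genes are red in naive 4, Oas1a and Oas2 are blue in all cast libraries, and the GTPases at the bottom run from blue or pale in cast 1 to red in cast 4.

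Across the 37 members, naive 4 was the highest naive library in 28, against 37.4% of all genes tested, and the highest of all 8 libraries in 17, against 25.1%. The classes differed in this: naive 4 was the highest of all 8 libraries in 12 of 19 antiviral genes and in 0 of 9 GTPases. In 8 of these 9 GTPases cast 4 was the highest of all 8. Among the naive libraries alone the classes differed less, with naive 4 the highest in 16 of 19 antiviral genes and in 5 of 9 GTPases. The median ratio of naive 4 to the mean of naive 1 to 3 was 2.22 in the antiviral genes and 1.103 in the GTPases. In a wider list of 52 other interferon-induced genes, naive 4 was the highest naive library in 22 and the lowest in 25. Its low depth widens the error of each of these values, as the counting interval of Isg15 shows, and the part of depth and of its low muscle content in this pattern was not tested. Marker genes of plasmacytoid dendritic cells, which make much type I interferon, summed to 296 in naive 4, 431 to 460 in naive 1 to 3 and 371 to 539 in the cast libraries, with Tcf4 alone giving 267 of the sum in naive 4. Siglech, their defining marker here, was 9.06 in naive 4, 11.6 to 13.7 in naive 1 to 3 and 2.47 to 6.29 in the cast libraries. Of the 9 markers 3, Ccr9, Cox6a2 and Pacsin1, were at 0 in naive 4. Pacsin1 was also at 0 in naive 1 and naive 3. Cox6a2 was 4.03 to 6.33 in naive 1 to 3 and 0.409 to 1.48 in the cast libraries, and the part of muscle content in its values was not tested. Spib was 12.3 in naive 4 against 0.904 to 2.58 in naive 1 to 3 and Ly6d 3.23 against 0 to 0.496.

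Cast libraries were ordered in the GTPases. Cast 1 was the lowest cast library in 30 of the 37 members and in 9 of 9 GTPases, against 33.5% of all genes, and cast 4 the highest in 22 of 37 and in 8 of 9 GTPases, against 27.1% of all genes. In the 52 other interferon-induced genes cast 1 was lowest in 40 and cast 4 highest in 30. The mean log2 level of the 9 GTPases was 4.72 to 4.84 in naive 1 to 3, 4.53 in naive 4 and 4.16, 5.28, 5.77 and 6.14 in cast 1 to 4. T and natural killer cell markers, whose cells are the usual source of interferon gamma, had mean log2 levels of 1.48, 1.38, 1.56 and 1.48 in cast 1 to 4. Muscle markers had mean log2 levels of 3.93, 1.45, 1.33 and 2.75 in the same libraries. The part of either in the order of the cast libraries was not tested.

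Levels per kilobase of exon allow the members to be set against each other. Bst2 was highest in naive capsules at 43.8 normalised read counts per kilobase, followed by Gbp2 at 20.5 and Isg15 at 17.2, and Ifi44, Mx2 and Mx1 were lowest at 0.561, 0.564 and 0.849. The place of Isg15 rested on naive 4, since without that library it was 6.98 per kilobase. In cast capsules the highest levels per kilobase were those of Bst2 (24.9), Gbp2 (23.4), Irgm2 (21.8), Igtp (15.9), Irf1 (15.0) and Iigp1 (14.9), while Oas1a and Oas2 stood at 2.89 and 2.22.

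Other genes of the interferon pathway were taken from lists chosen for this comparison. Of 21 interferon ligand genes listed, Ifnk and Ifnz had values, with 15 and 8 reads in all naive libraries and 13 and 18 in all cast libraries. The other 19, Ifng and Ifnb1 among them, had no row under these symbols in the table, so their levels could not be analysed. Of 6 receptor genes 1 rose, 0 fell and 5 did not pass, against 6.51% of all genes tested that rose and 5.46% that fell. Ifnlr1, the receptor chain for interferon lambda, stood at 0.151, 0.484, 0 and 0 in naive and 3.96, 8.69, 1.36 and 1.07 in cast libraries (log2 fold change 1.78, limma adjusted p = 0.0346), on 4 and 100 reads in all, and the call was lost in 8 of the 19 alternatives in which it was tested. Ifnar1 stood at 135, 121, 134 and 126 in naive and 171, 180, 202 and 163 in cast libraries, with no overlap (0.46, adjusted p = 0.0667), and rose without naive 4 (0.45, adjusted p = 0.0365). Ifngr2 also rose without naive 4 (0.54, adjusted p = 0.0377). The log2 fold change was 0.22 for Ifnar2 (limma adjusted p = 0.477), 0.27 for Ifngr1 (0.343) and 0.25 for Il10rb (0.390).

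Of the 3 Janus kinase genes listed, Jak1, Jak2 and Tyk2, which pass on the signal from these receptors, 0 passed by limma, against 12.0% of all genes tested. The log2 fold change was 0.31 for Jak1 (limma adjusted p = 0.274), 0.82 for Jak2 (0.148) and -0.64 for Tyk2 (0.121). By edgeR and DESeq2 0 passed as well, and without naive 4 Jak2 rose (0.44, limma adjusted p = 0.0420). Of 14 genes upstream of interferon production 3 rose and 0 fell, against 6.51% of all genes tested that rose and 5.46% that fell. Irf8, a transcription factor of macrophages and dendritic cells, stood at 21.4, 17.4, 20.7 and 32.3 in naive and 46.3, 48.0, 51.7 and 42.1 in cast libraries (1.04, adjusted p = 0.0119). Tmem173, the gene of the DNA-sensing adaptor STING, rose from 31.4 ± 12.8 to 76.3 ± 27.0 (1.26, adjusted p = 0.0362), and Ikbke, a kinase that activates IRF3, from 14.8 ± 3.08 to 25.4 ± 2.33 (0.76, adjusted p = 0.0351; n = 4 each). Macrophage markers overlapped between the groups as given above. Of 9 negative regulators 1 rose, against the same 6.51% of all genes tested. This was Socs1, a brake on JAK kinases, which rose from 3.95 ± 1.70 to 10.1 ± 3.796 (1.15, limma adjusted p = 0.0375). The calls of Tmem173, Ikbke and Socs1 were each lost when single libraries were left out (highest adjusted p 0.110, 0.0961 and 0.108), and that of Irf8 was not (highest 0.0456). With the muscle marker level as covariate each of these calls was lost, that of Irf8 too (log2 fold change 0.58, limma adjusted p = 0.108). In that fit Tmem173 was at 0.39 (adjusted p = 0.454), Ikbke at 0.54 (0.182) and Socs1 at 0.30 (0.504). Tlr9 (log2 fold change 0.83, limma adjusted p = 0.0147) and Myd88 (0.95, adjusted p = 0.0244) rose without naive 4 but not over all 8 libraries. The same held for Ptpn2 (0.67, adjusted p = 0.0438) and Ptpn6 (1.17, adjusted p = 0.0140). Without naive 4, 9.12% of all genes tested rose.

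Of 52 other interferon-induced genes tested 4 rose and 0 fell, near the 6.51% of all genes tested that rose. Isg20 (log2 fold change 0.95, limma adjusted p = 0.0368), Ifitm2 (1.20, adjusted p = 0.0337) and Tap1 (0.86, adjusted p = 0.00695) rose without naive 4 but not over all 8 libraries. Ifitm1, a membrane protein that blocks viral entry, stood at 1.51, 1.77, 0.827 and 7.12 in naive and 19.8, 55.1, 60.5 and 78.6 in cast libraries (log2 fold change 3.94, limma adjusted p = 0.00205), and passed in all 20 alternatives. Ifi47, a further immunity-related GTPase, stood at 9.04, 7.10, 8.43 and 5.82 in naive and 10.2, 26.5, 34.2 and 57.5 in cast libraries (1.73, adjusted p = 0.0307), the same order of cast libraries as in the mean level of the GTPases among the members. The call was lost in 8 of 20 alternatives, among them 6 of the 8 that leave out 1 library, each but naive 4 and cast 1 (adjusted p from 0.0525 to 0.0937). Gbp8 rose from 0.364 ± 0.339 to 2.57 ± 0.665 (1.40, adjusted p = 0.00923) on 9 and 72 reads in all. Mnda, of the family of interferon-inducible DNA-binding proteins, rose from 37.4 ± 15.55 to 78.0 ± 17.4 (1.12, adjusted p = 0.0457; n = 4 each), and its call was also lost in 8 of 20 alternatives, among them the omission of naive 2 or 3 or of any 1 cast library (adjusted p from 0.0598 to 0.123). Neutrophils also express Ifitm1 and Mnda relatives, and 9 neutrophil markers summed to 23.1 to 66.3 in naive and 688 to 5954 in cast libraries; their part in these values was not tested.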

How the data were processed

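RNA of 8 posterior knee capsules, 4 naive and 4 from casted mice as the sample labels give them, was sequenced with paired reads of 150 nt from 200 ng of RNA depleted of ribosomal RNA, per the labels' protocols. The authors deposited 1 table of signal values, which are gene counts scaled between libraries. Bowtie2 within RSEM was the aligner per the labels' protocols, and edgeR is named in the submitters' processing notes. Trimmomatic is version 0.38 in the protocols and 0.36 in the notes, and the genome is human hg38 in the protocols and mouse mm10 in the notes. The gene symbols are those of the mouse. For other versions, the annotation and the use of strand, the value is not given in the sources used here. All deposited values (100%) were whole multiples, within 0.01 reads, of what 1 read is worth in their library, so whole reads were recovered. The lowest read sum of a gene over all libraries was 8.

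Values were analysed as log2(value + 1) for genes with a mean of at least 0.5 by limma 3.58.1 (trend, Benjamini-Hochberg over all genes tested, threshold 0.05) in R 4.3.3. Fold changes on this scale understate those of low genes. Alternatives were pseudocounts of 0.5 and 5, a filter of 2.5, no filter, median-of-ratios scaling, no trend, array weights, the muscle marker level as covariate, a block for replicate number, omission of each library in turn, and edgeR 4.0.16 and DESeq2 1.42.0 on the recovered reads. On simulated data with 15099 genes, limma called 16 of 100 genes changed 2-fold, 79 of 100 changed 4-fold and 9 of 14904 unchanged genes. A smaller share of genes was changed there than passed in the data, which makes the adjustment stricter, so these shares do not measure power in the data. Coordinates and exons came from GENCODE M21 (build GRCm38), which matched 15795 symbols (95.9%). Summaries used Python 3.11.15 with pandas 2.3.3, numpy 2.4.6, scipy 1.17.1 and matplotlib 3.10.9.

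The members and the pathway and marker lists were chosen with earlier results of these data known. Genes were named where they passed the threshold over all libraries or without naive 4, where they belonged to a panel of 15 members described whatever their test, or as receptors. A result of 1 further gene is not reported here. Members that passed under any other alternative, and the others described by range, were added after their values were seen.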

Additional observations from a re-analysis of the deposited data

Results flagged for a closer look

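In 8 members the library naive 4 lay far above the rest of its group, in that its gap to the nearest naive library took up more of the whole naive range than Dixon's 95% critical value for 4 samples allows. These were Isg15 (36.2 normalised read counts in naive 4), Rsad2 (49.2), Cmpk2 (47.2), Oas1a (29.1), Oasl2 (35.6), Mx2 (3.23), Dhx58 (29.1) and the transcription factor gene Irf9 (58.9). For Mx2 the value in naive 4 was 5 reads, and its 95% exact Poisson interval of 1.05 to 7.55 covers the other naive values. Ifi44 was instead far higher in naive 2 (6.45) than in the other naive libraries. By the same measure naive 4 stood apart in the mean log2 level of all members (4.85) and of the antiviral genes (4.61), and in its recovered reads (1503880), which were far fewer than in the others. Cast 1 stood far below the other cast libraries in the mean log2 level of the sensors (4.72). In all 13 of 86 groups of values were marked. These groups share the same 8 libraries and include means over the members, so the nominal rate of the rule does not apply to their count. The 8 high values of naive 4 came from 37 naive groups of members, against 680 of 15120 genes tested (4.50%).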

How the results depend on the processing

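The falls of Oas1a and Oas2 kept their direction under each of the 20 alternatives. Of the 24 members named by rule or after their values were seen, 12 never changed direction. Leaving out libraries gave 510 to 1720 genes that rose, 406 to 1558 that fell, 0 to 8 members that rose and 1 to 2 that fell, where the highest counts, other than that of members that fell, came without naive 4 and cast 1 together. Over those settings the log2 fold change ran from -1.01 to 0.17 for Isg15, -0.85 to 0.048 for Oasl1, -0.28 to 0.25 for Oasl2, -0.10 to 0.91 for Ifit1, -0.30 to 0.081 for Ddx58, -0.18 to 0.53 for Dhx58, -0.32 to 0.49 for Gbp2 and -0.0072 to 1.13 for Igtp, and the median of the GTPases from 0.15 to 1.07. With array weights 2168 genes rose, 1817 fell and 7 members rose, and the log2 fold changes of Isg15 (0.013), Oasl1 (0.013), Oasl2 (0.12), Ddx58 (0.061) and Dhx58 (0.45) changed sign. The muscle marker level largely followed the group, as given above. With it as covariate 2827 genes rose, 1369 fell, 1 member rose and 10 fell. The median was then -0.69 over all members, -0.86 over the antiviral genes and -0.77 over the transcription factors. That fit turned Ifit1 (-0.81), Zbp1 (-0.34), Irf1 (-0.76), Stat2 (-0.44), Gbp2 (-0.57), Gbp5 (-0.34), Igtp (-1.02), Ifnar2 (-0.089), Ifngr2 (-0.11), Myd88 (-0.10), Ifitm2 (-0.26) and Tap1 (-0.079) negative. Dhx58, at -0.00 over all libraries, was 0.0050 with a pseudocount of 0.5. With a pseudocount of 5 there was 1 member that rose, by edgeR 2 and by DESeq2 2, where 1290 genes fell. With the replicate number as a block 782 genes rose and 589 fell, and 0 members rose and 2 fell. Libraries of the same number did not deviate together from their group means (correlations across genes 0.080, 0.035, -0.057 and -0.021), so the number is not read as a pairing, and not every library correlated best with its own number. The median log2 fold change of all genes was 0.07 as deposited and 0.06 with median-of-ratios scaling. The cause of each of these shifts was not tested. The depth of naive 4, where 1 read was worth 0.647 units, limits what low members show.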
